A study of Mus musculus with 7 samples.

Results

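The genes of 10 enzymes of glycolysis were examined for dimethylation of lysine 79 of histone H3 (H3K79me2) in mouse bone marrow-derived macrophages grown with or without an inhibitor of DOT1L, the enzyme that lays down the mark. The genes were Gpi1, Pfkl, Aldoa, Tpi1, Gapdh, Pgk1, Pgam1, Eno1, Pkm and Ldha. All rows of the table of read counts that overlapped the RefSeq span of one of these genes on mm10 were taken, which gave 17 of the 29397 regions, and the region with the highest mean count, called the main region, stood for the gene. All 10 genes had a region, against 43.4% of the 21900 annotated coding genes.

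The chromatin immunoprecipitation and sequencing (ChIP-seq) compared 3 libraries of cells given 1 µM SGC0946, a DOT1L inhibitor, with 3 libraries of cells given the solvent DMSO, all described as biological replicates. Both groups came from C57BL/6 marrow cultured for 7 to 8 days with conditioned medium of L929 cells as the source of M-CSF, with SGC0946 or DMSO present during differentiation. The growth protocol mentions both wild-type and knockout animals without tying either to these libraries, and the number of animals behind a library is not given. The input sample was not used here. The region counts summed to 2.95 to 3.13 M per SGC0946 library and 16.7 to 19.5 M per DMSO library. Of the macrophage markers, 12 of 12 had a region, among them Adgre1, Csf1r and Spi1. Of 12 markers of other blood cells 4 had one (Zbtb46, in a region shared with further coding genes, and Mpo, Lck and Klf1, each with a mean of at most 9 counts in either group), and of 9 stromal and endothelial markers 2 did (Runx2 and Cxcl12).

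Glycolysis splits glucose into pyruvate in the cytosol. Its early steps spend ATP to make triose phosphates, its later steps, from Gapdh to Pkm, return ATP and NADH, and lactate dehydrogenase turns pyruvate into lactate. Macrophages lean on the pathway when they are activated. H3K79me2 is found over the early transcribed part of active genes.

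On the genes the mark lay from near the transcription start into the gene body. The main region contained a RefSeq start in 8 of the 10 genes. In Pgam1 it began 60 bp and in Pfkl 181 bp downstream of the start. The main region covered the whole span of Tpi1, 89.0% of that of Pgam1, 83.5% of Eno1 and 82.3% of Gapdh, but 51.9% of Gpi1, 50.9% of Ldha and 33.1% of Pfkl, where it stopped 7735 bp after the start. Spans include transcripts that begin upstream of the starts used here, as in Ldha and Gapdh. The annotation used gives no exons, so exonic and intronic parts were not separated. The Tpi1 region also overlapped the neighbouring coding gene Spsb2, and its reads cannot be credited to Tpi1 alone. The other 9 main regions held no further coding gene. The annotation names 13 pseudogene copies after 5 of the genes, none of them overlapped by a region, and the treatment of reads that map to several places is unknown.

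**Figure D1:**
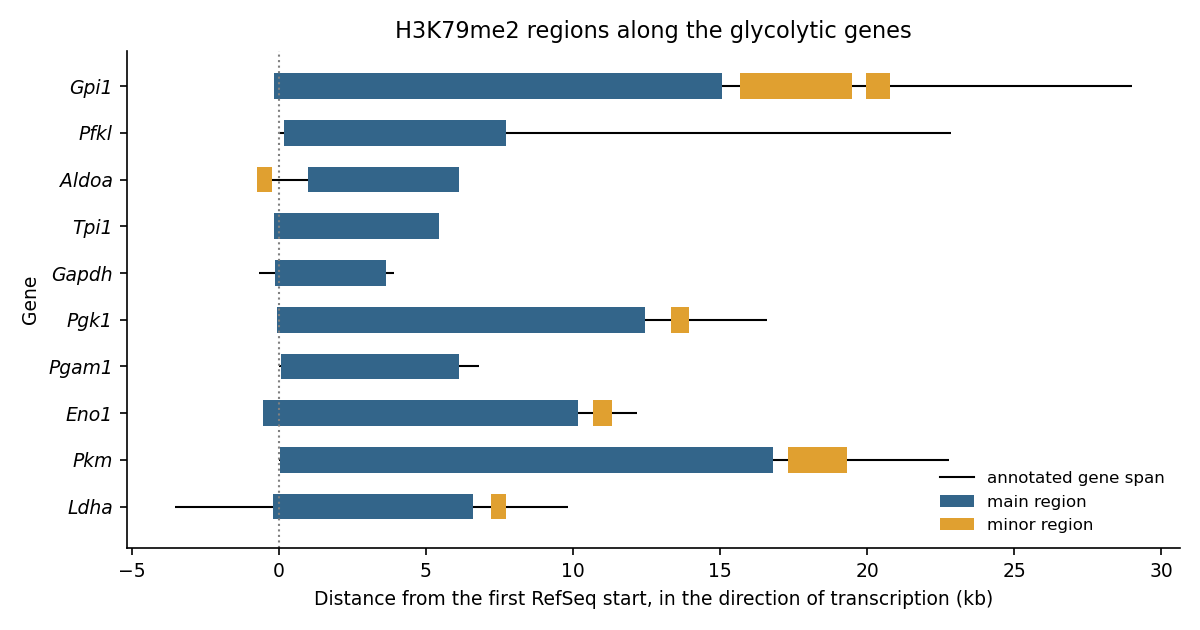
H3K79me2 regions (bars) along each gene (thin line, annotated span), by distance in kb from the first RefSeq start in the direction of transcription. Main regions begin close to the start in 9 genes and 990 bp after the most upstream start in Aldoa, and 6 of the 7 minor regions lie downstream of the main one.

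The stretches of 250 bases upstream of the first RefSeq start are shown for 4 genes. Pgam1 and Pgk1 kept the largest part of the mark. The stretch of Ldha holds the most matches to ACGTG, a form of the core of the hypoxia response element. Gpi1 kept the least and has no match to ACGTG. They are read 5′ to 3′ on the strand of the gene, from RefSeq on GRCm38.p6, the assembly that mm10 names, and capitals mark ACGTG on either strand. They lie at chr19:41911621-41911870 (plus strand) for Pgam1, chrX:106186850-106187099 (plus) for Pgk1, chr7:46845554-46845803 (plus) for Ldha and chr7:34230337-34230586 (minus) for Gpi1.
Pgam1: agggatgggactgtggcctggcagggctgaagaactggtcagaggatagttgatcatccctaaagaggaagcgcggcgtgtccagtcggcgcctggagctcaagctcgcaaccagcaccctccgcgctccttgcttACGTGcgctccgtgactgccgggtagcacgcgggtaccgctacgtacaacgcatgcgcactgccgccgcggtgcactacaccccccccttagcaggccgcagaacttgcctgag
Pgk1: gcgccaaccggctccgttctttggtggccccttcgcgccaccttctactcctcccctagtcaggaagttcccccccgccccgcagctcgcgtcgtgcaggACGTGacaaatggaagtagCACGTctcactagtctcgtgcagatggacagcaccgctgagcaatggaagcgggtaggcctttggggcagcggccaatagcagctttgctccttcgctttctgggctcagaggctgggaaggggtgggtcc
Ldha: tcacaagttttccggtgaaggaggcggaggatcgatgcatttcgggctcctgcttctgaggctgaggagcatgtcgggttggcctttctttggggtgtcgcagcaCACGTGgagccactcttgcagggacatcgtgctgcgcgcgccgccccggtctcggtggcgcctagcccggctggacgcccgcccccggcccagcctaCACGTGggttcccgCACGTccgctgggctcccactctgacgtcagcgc
Gpi1: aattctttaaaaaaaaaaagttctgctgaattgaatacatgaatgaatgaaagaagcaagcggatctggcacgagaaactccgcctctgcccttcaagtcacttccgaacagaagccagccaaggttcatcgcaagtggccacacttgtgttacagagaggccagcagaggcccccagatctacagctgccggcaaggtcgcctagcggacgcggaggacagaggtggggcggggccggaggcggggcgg
ACGTG is one form of the core to which hypoxia-inducible factors bind, and other forms were not searched. ACGTG was searched on both strands in the RefSeq windows of 250 bases before to 50 bases after each start. It occurred in 7 of the 16 windows of the 10 genes (43.8%), in 26.1% of the 9908 windows of coding genes with an H3K79me2 region and in 19.6% of all 32851 windows. The windows with it belong to Aldoa (2 overlapping windows that share a match), Gapdh, Pgk1, Pgam1, Pkm and Ldha. The E-box CACGTG, which contains ACGTG on both strands, was in 1 of the 16 windows, that of the first Ldha start, where it occurs 2 times, against 10.3% of the windows of coding genes with a region and 7.15% of all windows. The GC box GGGCGG was in 11 of 16 (68.8%), against 63% and 35.7%. These are matches of letters and carry no measurement of binding.

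Setting SGC0946 against DMSO asks how much of the mark on these genes was left under the inhibitor. All 10 main regions fell in unscaled counts (edgeR quasi-likelihood test, Benjamini-Hochberg adjusted p under 0.05). So did 99.7% of all 24895 regions tested and 99.8% of the main regions of coding genes. No SGC0946 library overlapped a DMSO library at any of the 10. The library totals did not overlap either, at 2.95 to 3.13 M with SGC0946 and 16.7 to 19.5 M with DMSO. How many other regions lack such overlap was not counted, so the separation cannot be called particular to these genes. The genes differed in what was left: the SGC0946 mean was 45.3% of the DMSO mean at Pgam1, 31.5% at Pgk1, 29.5% at Gapdh, 29.0% at Pkm, 22.2% at Eno1, 19.5% at Aldoa, 17.3% at Tpi1, 16.1% at Ldha, 13.51% at Pfkl and 13.04% at Gpi1. The median of the 10 was 20.9%, beside 14.1% over the 8157 tested main regions of coding genes. No spike-in chromatin is named, so the fall in unscaled counts also carries any difference in sequencing depth, and fewer marked cells cannot be told apart from less mark per cell.

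**Figure D2:**
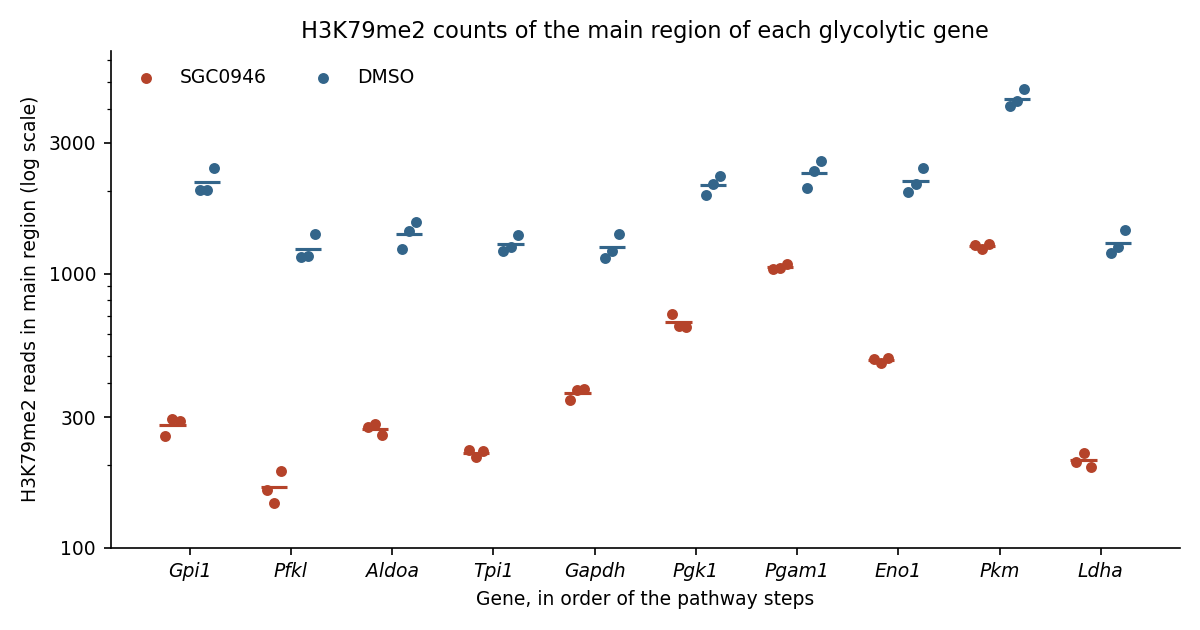
Read counts of the main region of each gene in the 3 SGC0946 and the 3 DMSO libraries (points, with the group mean as a line, log scale), genes in pathway order. At each gene all SGC0946 points lie below all DMSO points, as the library totals also do, with the smallest gap at Pgam1.

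The second scale was the share of the library, for which each count was divided by the total of its library, so that a region that lost as much as the whole library has a log2 change of 0. On this scale 6 of the 10 genes rose (Pgam1, Pgk1, Gapdh, Pkm, Eno1 and Aldoa), 2 fell (Pfkl and Gpi1) and 2 did not pass the test (Tpi1 and Ldha). Among main regions of coding genes 9.68% rose and 49% fell, and over all 23367 regions tested 6.16% rose and 23.3% fell. The median log2 change of share was 0.29 for the 10 genes, beside -0.28 for main regions of coding genes. Together the 17 regions held 0.161%, 0.167% and 0.172% of the counts of the SGC0946 libraries and 0.110%, 0.115% and 0.113% of those of the DMSO libraries. These calls depend on the scaling. When libraries were scaled on the sparsest 25% of regions, which moved the median of all regions to log2 -0.80 from -0.09, only Pgam1 was called higher, and Gpi1, Pfkl, Aldoa, Tpi1 and Ldha were called lower. With TMM or DESeq2 size factors 6 were called higher and 1 lower, and with cyclic loess 8 higher. Over all regions the rises were 20.9% of the calls with library totals, 35.7% with TMM, 38.2% with DESeq2 size factors, 51.1% with cyclic loess and 2.54% with scaling on the sparsest regions. The distance between the median of the 10 genes and that of all regions was 0.37 on the log2 scale with library totals. It was 0.25 without SGC0946 replicate 3, 0.57 without DMSO replicate 2, 0.59 with a minimum mean of 50 counts and 0.60 with cyclic loess, and these were the lowest and the 3 highest of the alternatives run.

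**Figure D3:**
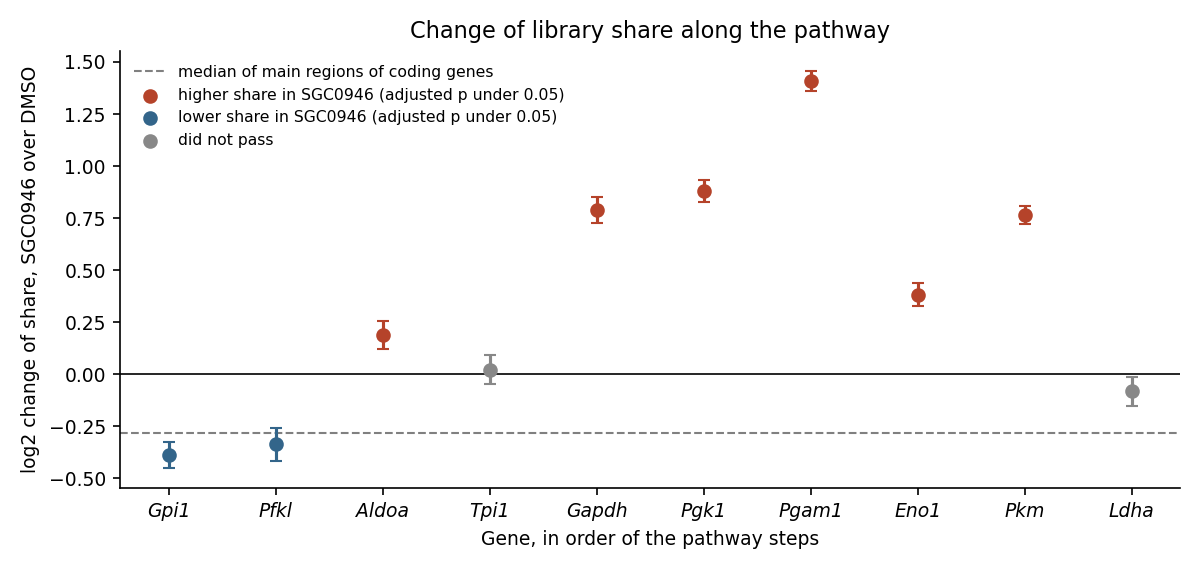
Log2 change of the share of the library (SGC0946 over DMSO) of the main region of each gene in pathway order, with standard errors derived from the edgeR test. The 5 genes from Gapdh to Pkm lie between 0.38 and 1.41, and Gpi1 and Pfkl lie below 0, near the dashed median of main regions of coding genes at -0.28.

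Of the early steps, Gpi1 encodes glucose-6-phosphate isomerase, which makes fructose-6-phosphate. Its main region (chr7:34215271-34230489) had 256, 296 and 290 counts in the SGC0946 libraries, against 2017, 2017 and 2424 in the DMSO libraries. In CPM, the count scaled by the total of its library, these were 81.7, 98.5 and 98.2 with SGC0946 and 120.5, 118.7 and 124.2 with DMSO, so the groups did not overlap on this scale either. The share fell by 0.39 ± 0.06 on the log2 scale (SE, n = 3 each, edgeR adjusted p = 5.7e-07), a call that cyclic loess did not give (log2 -0.11, adjusted p = 0.387). Pfkl, the liver-type subunit of phosphofructokinase, which commits sugar to the pathway, had 163, 146 and 191 counts with SGC0946 and 1147, 1159 and 1395 with DMSO at chr10:78002072-78009626. Its share fell by 0.34 ± 0.08 on the log2 scale (SE, n = 3 each, edgeR adjusted p = 0.00042), a call that TMM factors (adjusted p = 0.0779), DESeq2 size factors (0.125), the DESeq2 Wald test (0.342) and cyclic loess (0.993) did not give.

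Aldoa encodes the aldolase that splits fructose bisphosphate into triose phosphates. At chr7:126794336-126799457 it had 276, 282 and 259 counts with SGC0946 and 1230, 1429 and 1538 with DMSO. In CPM it lay between 87.7 and 93.8 with SGC0946 and between 73.5 and 84.1 with DMSO, a narrow gap. The share rose by log2 0.19 ± 0.07 (SE, n = 3 each, edgeR adjusted p = 0.0252). That call was lost without SGC0946 replicate 2 (log2 0.16, adjusted p = 0.14) or DMSO replicate 1 (log2 0.14, adjusted p = 0.0757), and the sign turned with scaling on the sparsest regions (log2 -0.51, adjusted p = 0.00546). Tpi1, triose phosphate isomerase, had 227, 214 and 226 counts with SGC0946 and 1206, 1256 and 1386 with DMSO at chr6:124808704-124814331, the region shared with Spsb2. Its CPM overlapped between the groups, 71.2 to 76.5 with SGC0946 and 71.0 to 73.9 with DMSO, and the change of share of log2 0.02 ± 0.07 (SE, n = 3 each) did not pass (edgeR adjusted p = 0.874). It was called lower with scaling on the sparsest regions (log2 -0.67, adjusted p = 0.000171) and higher with cyclic loess (log2 0.34, adjusted p = 0.00221).

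All genes of the later, energy-yielding steps rose in share on library totals while falling in counts. Gapdh, the dehydrogenase that yields NADH, had 345, 377 and 380 counts with SGC0946 and 1137, 1213 and 1392 with DMSO at chr6:125162119-125165916. This was 110.1 to 128.7 CPM with SGC0946 and 67.9 to 71.4 with DMSO, a gain of log2 0.79 ± 0.06 in share (SE, n = 3 each, edgeR adjusted p = 3.6e-17). Pgk1, phosphoglycerate kinase, which makes the first ATP of the later steps, is the only one of the 10 genes on the X chromosome. At chrX:106187025-106199564 it had 712, 644 and 637 counts with SGC0946 and 1936, 2127 and 2275 with DMSO. Its share gained log2 0.88 ± 0.05 (SE, n = 3 each, edgeR adjusted p = 1.1e-23).

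Pgam1, phosphoglycerate mutase, stood at the upper end of the pathway. At chr19:41911931-41917981 it had 1041, 1050 and 1081 counts with SGC0946 and 2060, 2364 and 2574 with DMSO. The SGC0946 libraries lay close together and well below the lowest DMSO library. Unscaled counts fell by 1.14 ± 0.10 on the log2 scale (SE, edgeR adjusted p = 4.1e-28), while the share rose by log2 1.41 ± 0.05 (SE, n = 3 each, edgeR adjusted p = 1.7e-36). This was 332.4 to 366.1 CPM with SGC0946 and 123.1 to 139.1 with DMSO. The share of Pgam1 was called higher under every scaling tried, including that on the sparsest regions (log2 0.73, adjusted p = 0.000296).

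Eno1, which encodes the alpha enolase that forms phosphoenolpyruvate, had 488, 473 and 491 counts with SGC0946 and 1980, 2120 and 2427 with DMSO at chr4:150236173-150246870. Its gain in share was smaller, log2 0.38 ± 0.05 (SE, n = 3 each, edgeR adjusted p = 1.7e-08). Pkm, the muscle-type pyruvate kinase that makes pyruvate and ATP, carried the highest counts of the 10 genes, with 1271, 1232 and 1281 with SGC0946 and 4073, 4253 and 4731 with DMSO at chr9:59656620-59673363. Its share rose by log2 0.76 ± 0.04 (SE, n = 3 each, edgeR adjusted p = 1.2e-24). With scaling on the sparsest regions Gapdh, Pgk1 and Pkm stayed above 0 without passing the test (log2 0.10, 0.19 and 0.08) and Eno1 turned to log2 -0.30 (adjusted p = 0.139).

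Ldha, the lactate dehydrogenase subunit that closes the fermentative route, did not pass the test in share. It had 206, 222 and 197 counts with SGC0946 and 1192, 1249 and 1437 with DMSO at chr7:46845606-46852395. In CPM the groups overlapped, 65.8 to 73.8 with SGC0946 and 71.2 to 73.6 with DMSO, and the change of share of log2 -0.08 ± 0.07 (SE, n = 3 each) did not pass (edgeR adjusted p = 0.454). It was called lower with scaling on the sparsest regions (log2 -0.78, adjusted p = 9.0e-06) and higher with cyclic loess (log2 0.24, adjusted p = 0.0207).

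A ratio of 2 genes within a library does not depend on the scaling. The summed counts of the 5 main regions from Gapdh to Pkm were 4.18, 4.03 and 4.01 times those of the 4 main regions from Gpi1 to Tpi1 in the SGC0946 libraries, and 2.00, 2.06 and 1.99 times in the DMSO libraries. The later group kept 31.4% of its summed counts, with single genes between 22.2% and 45.3%, and the earlier group kept 15.5%, with single genes between 13.04% and 19.47%. This grouping of the genes was made after their values were seen and is given as a description. In the order of what was kept, Pgam1 was set apart from Pgk1, Pkm from Eno1, Eno1 from Aldoa and Aldoa from Tpi1, in that the ratio of the 2 genes in SGC0946 libraries did not overlap the ratio in DMSO libraries. The ratios of the other neighbours overlapped: Pgk1 to Gapdh, Gapdh to Pkm, Tpi1 to Ldha, Ldha to Pfkl and Pfkl to Gpi1. The gap for Aldoa to Tpi1 was narrow, with ratios of at least 1.146 with SGC0946 and at most 1.138 with DMSO. With 3 libraries per group an exact permutation test can give no p under 0.1, and several pairs were compared. These separations are therefore descriptions.

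How densely a gene was marked moved with what it kept, in these genes and in other coding genes with a DMSO mean of at least 1000 counts. With SGC0946 the main regions held 18.4 counts per kb at Gpi1 and 22.1 at Pfkl at the low end and 174.7 at Pgam1 at the high end. With DMSO they ran from 141 counts per kb at Gpi1, 163 at Pfkl, 169 at Pgk1 and 190 at Ldha through 203 at Eno1, 228 at Tpi1, 260 at Pkm and 273 at Aldoa to 328 at Gapdh and 385 at Pgam1. The sparsest 25% of all regions had 4.82 to 7.09 counts per kb in SGC0946 libraries and 19.9 to 23.7 in DMSO libraries. Across the 10 genes the Spearman rho of DMSO density and percent kept was 0.685, and across the 3376 main regions of coding genes with a DMSO mean of at least 1000 counts it was 0.635. Both are descriptions, since density and percent kept share the DMSO counts and the libraries. Medians of wider sets of regions did not rise with density. All tested regions kept a median of 16.1% at a median of 47.2 DMSO counts per kb. Main regions of coding genes kept 14.1% at 109 counts per kb, and the 3376 kept 13.8% at 184.

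The rises in share can be read beside main regions of coding genes with a DMSO mean of at least 1000 counts, split by density. The split is coarse and does not match single genes. The denser class had a median of 253 DMSO counts per kb, below Gapdh at 328 and Pgam1 at 385. Its regions had a median length of 15660 bp and a median of 4076 DMSO counts, beside 7172 bp and 1756 for the 10 genes. At 200 or more DMSO counts per kb, 40.2% of the 1424 heavily marked main regions (DMSO mean of at least 1000 counts) rose in share and 37.4% fell, and of the 6 glycolytic genes in that class 5 rose and Tpi1 did not pass. Under 200 counts per kb, 3.28% of 1952 regions rose and 86.5% fell, and of the 4 glycolytic genes there Pgk1 rose, Gpi1 and Pfkl fell and Ldha did not pass. Pgk1 kept 31.5% in a class with a median of 12.6%, and 5 of the 1952 regions kept more. Pgam1 kept 45.3% in a class with a median of 17.1%, and 33 of the 1424 regions kept more. The limits of 1000 counts and 200 counts per kb were chosen after the values were seen, and the part of density in the calls was not tested.

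**Figure D4:**
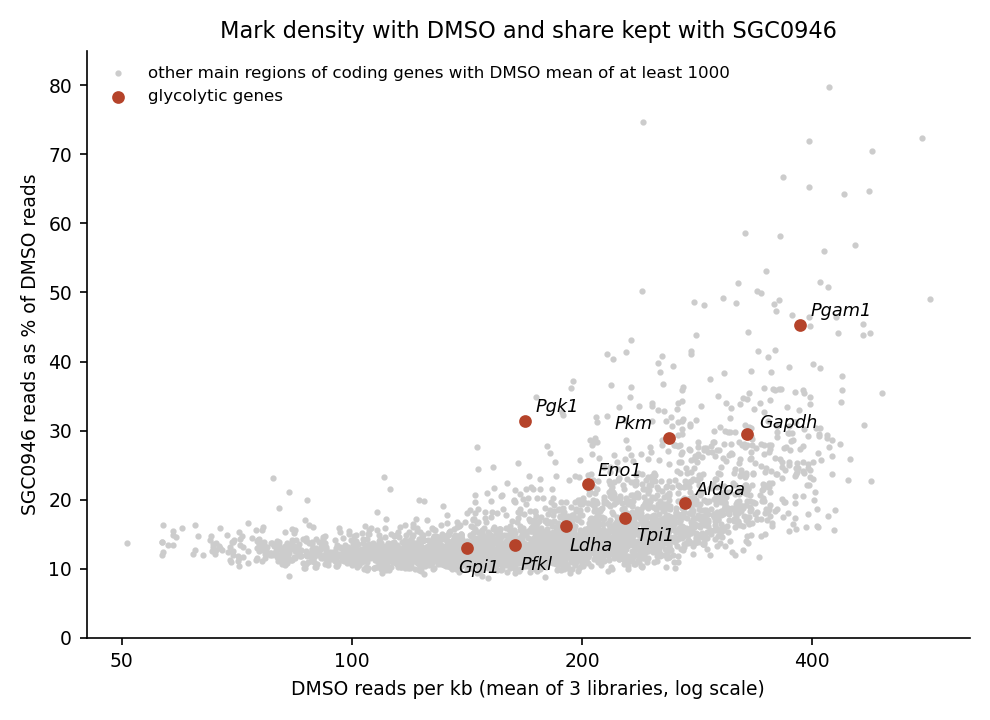
Percent of the DMSO counts left with SGC0946 against DMSO reads per kb (log scale) for the main regions of the 10 genes (labelled points) and of other coding genes with a DMSO mean of at least 1000 counts (grey). Most of the 10 lie inside the rising cloud, and Pgk1, at 169 counts per kb and 31.5%, lies at its upper edge.

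The 7 minor regions held few reads. The largest, at Gpi1 (chr7:34210839-34214671), had 25, 32 and 22 counts with SGC0946 and 241, 253 and 254 with DMSO. It kept 10.6%, and its share fell by 0.69 ± 0.17 on the log2 scale (SE, n = 3 each, edgeR adjusted p = 0.00075). The minor region of Pkm (chr9:59673876-59675880) had 11, 19 and 12 counts with SGC0946 and 51, 63 and 63 with DMSO, and kept 23.7%. That of Pgk1 (chrX:106200427-106201051) had 2, 2 and 3 counts with SGC0946 and 22, 25 and 32 with DMSO. It kept 8.86% (95% Clopper-Pearson interval 3.45% to 19.1%, for counting error only), below the 31.5% of the main region of the same gene. The remaining 4, at Gpi1, Aldoa, Eno1 and Ldha, summed to 5 to 15 counts over the SGC0946 libraries and 47 to 65 over the DMSO libraries, and kept between 10.4% and 27.3%. All 7 fell in unscaled counts (edgeR adjusted p of at most 1.4e-05). Apart from the Gpi1 region, none of the 5 other minor regions tested for share passed (edgeR adjusted p between 0.213 and 0.882), and that of Ldha had too few counts for the test.

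The surrounding genes were read by the same rule. The counts of the lists below stand beside 9.68% of main regions of coding genes that rose in share and 49% that fell. Of those with a DMSO mean of at least 1000 counts, 18.8% rose and 65.8% fell. Hexokinases trap glucose in the cell: Hk1 had 386, 433 and 346 counts with SGC0946 and 3971, 3877 and 4578 with DMSO, and kept 9.38% (log2 share -0.86 ± 0.06, edgeR adjusted p = 1.1e-21). Hk3 kept 12.8% and fell in share, with a log2 change of -0.41 (edgeR adjusted p = 4.6e-05), while Hk2 kept 16.3% and did not pass (edgeR adjusted p = 0.405). Of the 9 tested genes of hexokinases and other glycolytic isozymes the share of 1 rose and that of 4 fell. Cyclic loess called 1 higher and 2 lower, and the DESeq2 Wald test 2 higher and 2 lower of the 10 genes with a region. The median log2 change was -0.07. Besides Hk1 and Hk3 the platelet-type phosphofructokinase gene Pfkp (10.8% kept) and the muscle-type Pfkm (14.0%, in a region shared with Senp1) fell. The 1 rise was at Eno3, in a region that overlaps 3 further coding genes (25.8% kept), so it cannot be credited to that enolase.

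Of 20 genes of glycolysis control and of glucose and lactate transport, 0 rose, 15 fell and 5 did not pass in share (edgeR quasi-likelihood). Their median log2 change was -0.38, beside -0.28 for main regions of coding genes, of which 9.68% rose and 49% fell. For the 20 genes the number higher was also 0 at an unadjusted p under 0.05 and with the DESeq2 Wald test. That test called 10 lower, and cyclic loess called 1 higher and 4 lower. Egln1, the oxygen-sensing prolyl hydroxylase that marks HIF-1α for destruction, kept 10.3% (log2 share -0.72 ± 0.05, edgeR adjusted p = 1.5e-21). Max, the partner of MYC, kept 10.6%, Egln2 10.7% and Mlx, the partner of the glucose-sensing ChREBP family, 10.8%. The HIF-1α gene Hif1a itself kept 13.5% and the glucose transporter gene Slc2a1 13.3%, and both fell in share (edgeR adjusted p = 5.9e-08 and 3.0e-08). These last 2 were named for their role after their values were seen.

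In the pentose phosphate pathway, which branches off after hexokinase, 1 of 8 genes rose and 3 fell in share. The DESeq2 Wald test called 1 higher and 2 lower, and cyclic loess 3 higher and 0 lower. The transketolase gene Tkt kept 19.1% (log2 share 0.16 ± 0.05, edgeR adjusted p = 0.00521), and Rpe, Rpia and H6pd kept 11.7%, 12.2% and 12.6%. Of 10 tested genes of gluconeogenesis and glycogen metabolism 1 rose and 6 fell, while the DESeq2 Wald test called 1 higher and 0 lower and cyclic loess 0 higher and 0 lower. Pck2, a mitochondrial phosphoenolpyruvate carboxykinase, kept 10.96%, the phosphoglucomutase genes Pgm2 and Pgm1 12.0% and 12.6%, and the glycogen phosphorylase gene Pygb 12.7%, while the rise was at a 500 bp region of G6pc3 with a mean of 5.67 counts with SGC0946 and 11 with DMSO. Downstream of pyruvate, 1 of 31 genes of pyruvate oxidation and the tricarboxylic acid cycle rose, 20 fell and 10 did not pass. The DESeq2 Wald test called 0 higher and 13 lower, and cyclic loess 1 higher and 5 lower. The list had a median of 13.8% kept and a median log2 change of share of -0.31, beside 20.9% and 0.29 for the 10 glycolytic genes. Among main regions of coding genes the medians were 14.1% and -0.28, and 9.68% rose and 49% fell in share. The aconitase gene Aco1 kept 10.1%, the pyruvate dehydrogenase phosphatase gene Pdp2 10.5%, the dihydrolipoamide dehydrogenase gene Dld 10.6% and the mitochondrial pyruvate carrier gene Mpc1 10.8%. The rise was at Suclg2, in a region with a mean of 12 counts with SGC0946 and 40 with DMSO. G6pc3 and Suclg2 were named after their values were seen. The summed density of the main regions was 54.8 to 55.8 counts per kb in SGC0946 libraries and 199 to 239 in DMSO libraries for the glycolytic genes, and 18.5 to 19.4 with SGC0946 and 132 to 155 with DMSO for the tricarboxylic acid cycle list, so the lists also differed in density and the part of that in their difference was not tested.

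The macrophage markers, which are not metabolic genes, were read on the same scale. Of the 12 the share of 3 rose, that of 2 fell and 7 did not pass, with a median log2 change of 0.11 and a median of 18.4% kept. The DESeq2 Wald test called 5 higher and 1 lower, and cyclic loess 8 higher and 0 lower. The galectin-3 gene Lgals3 kept 51.6% and the cathepsin B gene Ctsb 43.8%, beside 45.3% at Pgam1, and Cd68, in a region shared with Eif4a1 and Senp3, kept 28.3%. Mertk, a receptor for the uptake of dying cells, and the transcription factor gene Cebpa fell and kept 11.5% and 13.9%. The summed density of the marker regions was 69.3 to 75.9 counts per kb in SGC0946 libraries and 227 to 262 in DMSO libraries, above that of the glycolytic genes in each of the 6 libraries. Of the 3 tested markers of other blood cells Mpo and Lck were called higher in share and Zbtb46 lower (12.5% kept). Mpo had 12, 8 and 7 counts with SGC0946 and 7, 3 and 1 with DMSO, and Lck had 8, 6 and 3 with SGC0946 and 2, 1 and 1 with DMSO. These marker genes were named after their values were seen.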

How the data were processed

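The authors' deposited table gives whole-number read counts per region for 3 SGC0946 and 3 DMSO libraries. The build was mm10 and the tools were R 3.6.3, ChIPseeker 1.20.0, bedtools 2.27.0, HOMER 4.11.1 and HISAT2, per the submitters' processing notes. The step each tool was used for is not given in the sources used, nor are the handling of duplicates, pooling of libraries and reads mapping to several places, and each could change the counts. Per the labels' protocols, chromatin of 10 to 20 M cells was fixed with 1% formaldehyde for 10 min and pulled down with an H3K79me2 antibody, and 50 bp single reads were sequenced to a nominal 40 M per sample.

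Starts were read as zero-based and are given 1-based. Regions were matched to RefSeq gene spans of GRCm38.p6 with numpy 2.4.6 and pandas 2.3.3 in Python 3.11.15. Counts were tested over all regions in R 4.3.3 using edgeR 4.0.16 (the quasi-likelihood F test, filterByExpr by group, Benjamini-Hochberg adjustment, threshold 0.05), on library totals with normalization factors of 1 (share) and with equal library sizes (unscaled). Each standard error was derived as the absolute log2 fold change over the square root of F. TMM, DESeq2 1.42.0, cyclic loess with limma 3.58.1, other filters, single libraries left out and a replicate block were tried as alternatives. Pairs of libraries of the same group differed by more than sampling noise (chi-square per degree of freedom 1.32 to 2.38). The edgeR script was tested on simulated data with a dispersion of 0.002. It recovered 36% of 1.25-fold, 70% of 1.5-fold, 68% of 2-fold and 98% of 4-fold changes of share. The changed regions were drawn at random from regions above a low count minimum. Recovery at regions as heavily counted as the 10 main regions, with DMSO means of 1234 to 4352, was not measured separately. There were 5 false calls among 22010 regions. A region that did not pass may therefore still have changed. The p-values weigh the difference of the groups against the modelled spread between these libraries, and the number of animals behind the libraries is not given. Named genes were all 10 members, the hexokinases with a region and, from each other list, up to 4 genes each way with the highest or lowest change of share among genes that passed the test and averaged at least 50 counts, with exceptions stated beside them. The members and lists were chosen with earlier results of these data known.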

Additional observations from a re-analysis of the deposited data

How the results depend on the processing

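All 10 genes fell in unscaled counts under every alternative run for that scale (no count filter, the DESeq2 Wald test, the replicate block and each library left out). In share of the library, 6 genes were higher and 2 lower with library totals, and the same numbers came with no count filter, with a minimum mean of 50 counts and with the replicate block. With 1 library left out 5 to 6 were higher and 2 lower. TMM factors, DESeq2 size factors and the DESeq2 Wald test each called 1 of the 10 lower, cyclic loess 0 lower and 8 higher, and scaling on the sparsest 25% of regions 1 higher and 5 lower. With that scaling the changes of Aldoa, Tpi1 and Eno1 turned to log2 -0.51, -0.67 and -0.30. Tpi1 lay between -0.01 and 0.04 with 1 library left out, and Ldha turned to 0.06 with TMM, 0.07 with DESeq2 size factors, 0.24 with cyclic loess and 0.03 with the DESeq2 Wald test. The cause of these shifts was not tested.

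Over all regions, 1440 were higher and 5439 lower in share. The number higher was 351 with scaling on the sparsest regions, 2784 with no count filter, 808 with a minimum mean of 50 counts, 2505 with the DESeq2 Wald test and 918 to 2155 with 1 library left out. The number lower was 3524 with TMM, 3218 with DESeq2 size factors, 13467 with scaling on the sparsest regions, 1562 with cyclic loess, 2831 with the DESeq2 Wald test and 4595 to 5587 with 1 library left out. Rises were 20.9% of the calls with library totals, 35.7% with TMM, 46.9% with the DESeq2 Wald test, 38.2% with DESeq2 size factors, 51.1% with cyclic loess and 2.54% with scaling on the sparsest regions. Unscaled rises numbered 5, against 197 without a filter, 221 with the DESeq2 Wald test and 5 to 9 with 1 library left out.

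The percent kept after subtracting the density of the sparsest 25% of regions, an alternative chosen after seeing the data, was 10.3% for Gpi1, 11.3% for Pfkl, 16.2% for Tpi1, 46.4% for Pgam1, 21.5% for Eno1 and 14.6% for Ldha, and the order of the 10 genes was as before. Leaving out 1 library gave 12.6% to 13.9% for Gpi1, 12.5% to 14.5% for Pfkl, 18.4% to 20.5% for Aldoa, 16.8% to 18.1% for Tpi1, 28.2% to 31.3% for Gapdh, 30.2% to 32.7% for Pgk1, 42.8% to 47.8% for Pgam1, 21.3% to 23.6% for Eno1, 28.1% to 30.3% for Pkm and 15.5% to 17.1% for Ldha.

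Whether libraries with the same replicate number share an animal or a day is not given in the sources used. Deviations of libraries with the same number correlated at 0.0076, -0.12 and -0.0099, and no SGC0946 library correlated best with the DMSO library of its own number. With the replicate block 1414 regions were higher and 5202 lower in share. The number of reads sequenced per library is unknown, which limits what unscaled counts can show.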
